A study of Pongo abelii with 8 samples.

Results

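The proteasome subunit genes were examined in induced pluripotent stem cell (iPSC) colonies and skin fibroblasts of 2 Sumatran orangutans. Members were the probe sets whose platform annotation gives a single gene symbol of the form PSMA, PSMB, PSMC, PSMD, PSME, PSMF or PSMG followed by a number, without the inducible subunits PSMB8, PSMB9 and PSMB10. This rule found 59 of 22277 probe sets, for 36 of 11963 named genes. A gene was represented by whichever of its probe sets had the highest average across the 8 arrays. The members comprised 13 genes of the 20S core particle, 2 of its assembly chaperones, 14 of the 19S regulatory particle, 3 assembly chaperones of the 19S base, 3 activators and 1 inhibitor. Not every subunit of either particle is among them, and PSMA6 and PSME2, whose probe sets carry several symbols, were left out by the rule.

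Each culture was hybridized to 1 Affymetrix array whose probes were designed on human transcripts. The donors were a female of 43 years, KB10460, and a male of 29 years, KB10973. Each gave 1 culture of dermal fibroblasts and 3 iPSC colonies. All iPSC colonies had received retroviruses with human OCT4, SOX2, KLF4 and c-MYC, while the fibroblasts were the untransduced starting cultures from skin of the upper limb. The colonies were picked as clones on mouse feeder cells and grown in serum replacement, and the growth protocol puts the fibroblasts in fetal bovine serum. The design text of the series instead gives serum replacement for both cell types. Under the growth protocol, cell type and medium cannot be told apart. Colonies of 1 animal share a donor and are not independent animals. The p-values below therefore measure the spread among colonies and cultures of 2 orangutans.

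The proteasome degrades proteins that carry chains of ubiquitin. Its 20S core is a barrel with outer rings of alpha subunits, which form the gate, and inner rings of beta subunits, some of which cut the peptide chain. The 19S particle caps the barrel: its ATPase ring unfolds substrates and threads them in, and its non-ATPase subunits bind ubiquitin and remove it. Other caps, the PSME activators, open the gate without ubiquitin. Pluripotent cells are known for a high proteasome activity, and dividing cells use the proteasome to destroy cyclins.

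The cell types were as labelled. Of 8 listed pluripotency markers 5 entered. POU5F1, TDGF1 and ZFP42 had no probe set with that single symbol and were left out. The mean log2 value over the 5 was 8.67 to 9.12 in the iPSC arrays and 3.82 to 3.89 in the fibroblasts. All 5 were called higher in the iPSCs. Over 8 fibroblast markers the iPSC arrays lay between 4.62 and 5.14 and the fibroblasts at 9.09 and 9.40. Of these 8 markers 7 were called lower in the iPSCs, and THY1 was called higher. Over 5 markers of differentiated cells the mean was 4.30 to 4.93 in the iPSCs, with AFP and TBXT called higher than in the fibroblasts. Over 6 proliferation markers the mean was 7.32 to 7.70 in the iPSCs, against 4.19 in the KB10460 and 4.73 in the KB10973 fibroblasts, and 5 of the 6 were called higher. These marker groups move with every comparison of the cell types below, and their part in it was not tested. In bulk RNA, fewer cells of a type and less RNA per cell cannot be told apart.

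Most proteasome subunit genes had higher signals in the iPSCs, and the shift was small in size. A gene was called when limma gave a change of more than 1.5-fold with a Benjamini-Hochberg adjusted p below 0.05 over all probe sets. By this rule 22 of the 36 members rose in the iPSCs, PSME1 fell, and 13 were not called. Of all named genes 15.2% were called higher and 11.5% lower. Most members have strong signals, and among the 4434 genes with a mean log2 value of at least 5, which hold 35 of the members, 33.6% were called higher and 17.6% lower. The median log2 fold change was 0.73 over the members, a 1.66-fold difference, against -0.00 over all genes and 0.24 over the genes with a mean of at least 5. In 25 members every colony exceeded both fibroblast cultures, and in 1, PSME1, every colony was under them. Of all genes 23.6% were separated upward in this way and 19.7% downward, and of those with a mean of at least 5, 43.1% and 22.8%. The calls depend on the fibroblast culture: without the KB10460 fibroblasts 16 members were called higher, and without the KB10973 fibroblasts 25. With the 3 colonies of each donor averaged first, 16 members were called higher.

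**Figure D1:**
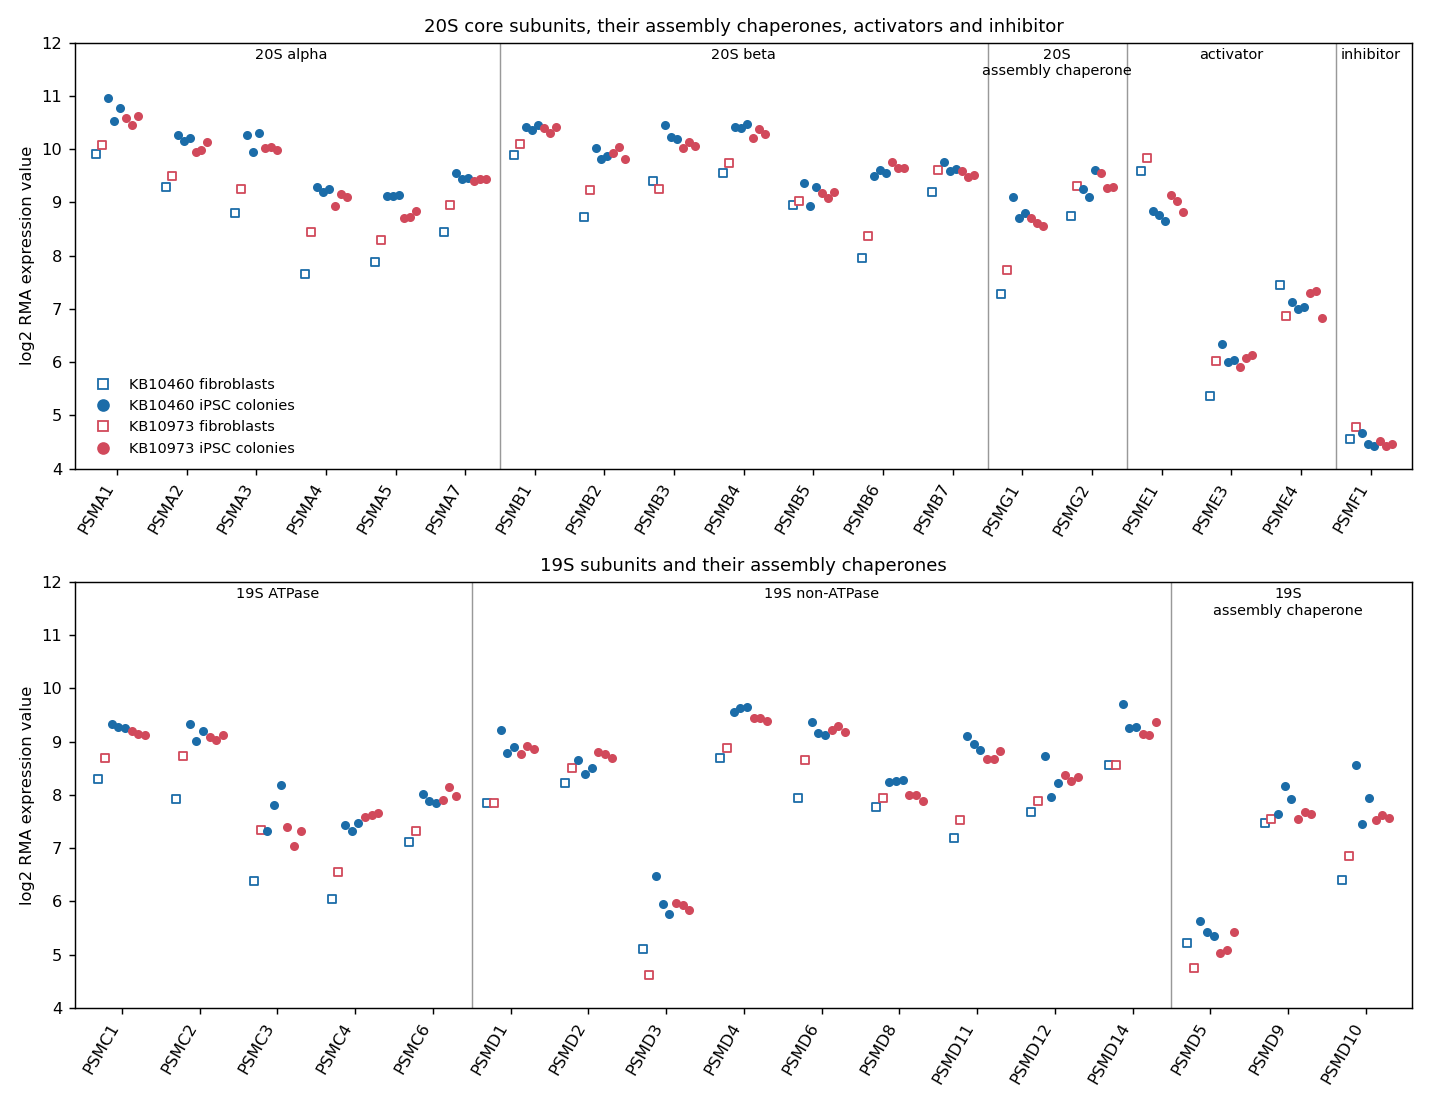
Log2 RMA expression values (vertical axis) of the 36 member genes (horizontal axis, grouped by role), in which open squares are fibroblast cultures and filled circles iPSC colonies, and colour gives the donor. The circles lie above the squares for all 6 alpha subunits, overlap with them for PSMB5 and PSMB7, and lie below them for PSME1. Probe sets differ in affinity, so heights are to be compared within a gene only.

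The alpha subunits of the 20S core were all called higher, with 4 of the 6 calls lost in at least 1 alternative at the same thresholds. PSMA4 was at 7.66 in the KB10460 fibroblasts and 8.44 in the KB10973 fibroblasts, and the iPSC colonies lay between 8.92 and 9.28 with a median of 9.17. All colonies were above both fibroblast cultures, which themselves were apart. The log2 fold change of PSMA4 was 1.10 (SE 0.18, adjusted p = 0.0015 by limma). PSMA3 was at 8.80 and 9.24 in the fibroblasts of KB10460 and KB10973 and at 9.95 to 10.31 (median 10.03) in the iPSCs, a 2.10-fold rise (log2 fold change 1.07 ± 0.14 SE, adjusted p = 0.00036). PSMA5 rose 1.81-fold (adjusted p = 0.0032) and PSMA7 1.70-fold (adjusted p = 0.0010). PSMA2 and PSMA1 had the smallest rises of the class, at 1.65-fold and 1.58-fold. In each of the 6 genes the colonies and the fibroblasts did not overlap. PSMA7 was nearly level across the colonies, with an SD of 0.05 on the log2 scale (n = 6), while its fibroblast values were 8.45 and 8.94. The calls of PSMA1 and PSMA7 ended without the KB10460 fibroblasts (log2 fold changes 0.57 and 0.52). With the colonies averaged within each donor, PSMA4, PSMA5 and PSMA7 lost their calls (adjusted p = 0.087, 0.071 and 0.076 from limma), and PSMA1 fell under the fold threshold after a further quantile normalization (0.56 on the log2 scale).

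Among the beta subunits the catalytic ones parted ways. PSMB6, the beta1 subunit with caspase-like activity, was at 7.96 in the KB10460 fibroblasts, at 8.37 in the KB10973 fibroblasts and at 9.50 to 9.76 (median 9.63) in the iPSCs. Every colony was more than a unit above either culture, and PSMB6 rose 2.74-fold (log2 fold change 1.46 ± 0.11 SE, adjusted p = 1.5e-05 from limma). PSMB7, the beta2 subunit with trypsin-like activity, was at 9.19 and 9.61 in the KB10460 and KB10973 fibroblasts and at 9.47 to 9.76 (median 9.60) in the iPSCs. The KB10973 fibroblasts lay within the range of the colonies, and PSMB7 was not called (log2 fold change 0.19 ± 0.12 SE, adjusted p = 0.29). PSMB5, the beta5 subunit with chymotrypsin-like activity and the main target of the drug bortezomib, was at 8.95 and 9.03 in the fibroblasts and at 8.93 to 9.37 (median 9.19) in the iPSCs. It overlapped between the cell types and was not called either (log2 fold change 0.18 ± 0.11 SE, adjusted p = 0.30). Each of these 3 genes has a single probe set among the members, so that no other set can be laid beside it.

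The structural beta subunits had rises of moderate size. PSMB2 was at 8.73 and 9.23 in the KB10460 and KB10973 fibroblasts and at 9.81 to 10.04 in the iPSCs (1.91-fold, adjusted p = 0.00051). PSMB3 was at 9.41 and 9.26 and at 10.02 to 10.45 (1.80-fold, adjusted p = 0.00048), and PSMB4 at 9.56 and 9.74 and at 10.21 to 10.48 (1.64-fold, adjusted p = 0.00037). PSMB3 was the only beta subunit whose signal was lower in the KB10973 than in the KB10460 fibroblasts. PSMB1 had 9.90 and 10.09 in the fibroblasts and 10.31 to 10.46 in the iPSCs without overlap. Its adjusted p was 0.0045, and with a 1.32-fold difference it stayed under the fold threshold.

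The inducible counterparts PSMB9, PSMB10 and PSMB8 replace PSMB6, PSMB7 and PSMB5 in the immunoproteasome, a form made under interferon. PSMB8 was at 5.33 and 5.66 in the KB10460 and KB10973 fibroblasts and at 3.41 to 3.92 (median 3.63) in the iPSCs. The iPSC values are near the median of an array (3.74 to 3.82), and PSMB8 fell by 1.86 on the log2 scale (standard error 0.14, adjusted p = 1.1e-05 from limma). PSMB9 was at 4.03 in the KB10460 fibroblasts, at 5.05 in the KB10973 fibroblasts and at 3.98 to 4.71 in the iPSCs, and was not called (log2 fold change -0.41, adjusted p = 0.33). PSMB10 was at 6.56 and 6.62 in the fibroblasts and at 6.06 to 6.91 in the iPSCs, and was not called (log2 fold change -0.10 ± 0.20 SE, adjusted p = 0.79). PSMB6 rose while its counterpart was not called, and PSMB8 fell while PSMB5 was not called. The colony median of PSMB9, 4.01, was not far above the array medians, so its missing call says little. PSMB9 rested on the fibroblasts: it was called lower without those of KB10460 (log2 fold change -0.92, adjusted p = 0.033 from limma), and its sign turned without those of KB10973 (log2 fold change 0.11).

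**Figure D2:**
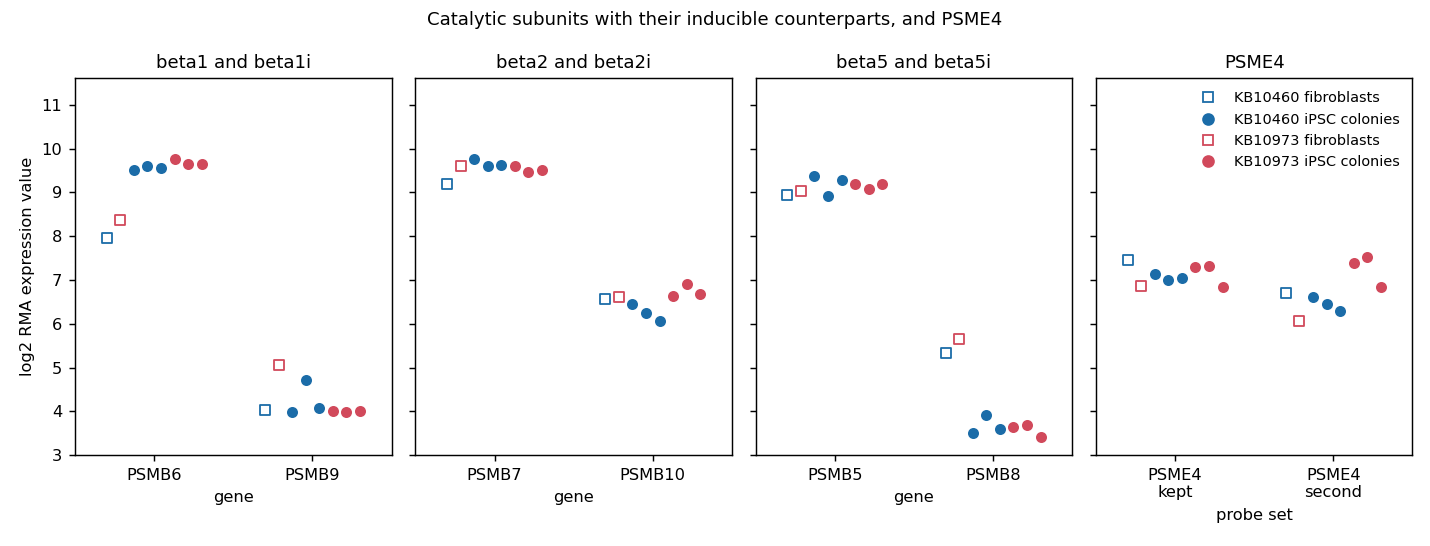
Log2 RMA expression values (vertical axis) of the catalytic 20S subunits beside their inducible counterparts and of PSME4 at its kept and its second probe set (horizontal axis), with open squares for fibroblast cultures and filled circles for iPSC colonies, coloured by donor. The colonies stand above the fibroblasts for PSMB6 and below them for PSMB8, and KB10973 colonies 1 and 2 are the highest arrays at the second probe set of PSME4. Heights are to be compared within a probe set only.

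The assembly chaperones of the core differed. PSMG1 and PSMG2 encode partners of a dimer that helps the alpha ring to form. PSMG1 was at 7.28 and 7.74 in the KB10460 and KB10973 fibroblasts and at 8.55 to 9.10 (median 8.71) in the iPSCs, a 2.36-fold rise (log2 fold change 1.24 ± 0.16 SE, adjusted p = 0.00034 from limma). PSMG2 was at 8.74 and 9.31 in the fibroblasts and at 9.10 to 9.60 in the iPSCs. The KB10973 fibroblasts lay among the colonies, and PSMG2 was not called (log2 fold change 0.32 ± 0.17 SE, adjusted p = 0.22). It was called without the KB10973 fibroblasts (log2 fold change 0.60, adjusted p = 0.041). POMP, the maturation factor of the beta ring, was at 10.48 and 10.51 in the fibroblasts and at 10.66 to 10.89 in the iPSCs. Its 1.24-fold difference had an adjusted p of 0.019 and was under the fold threshold.

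Of 5 ATPase genes of the 19S base 4 rose. PSMC4 was at 6.04 in the KB10460 fibroblasts, at 6.54 in the KB10973 fibroblasts and at 7.33 to 7.67 (median 7.53) in the iPSCs, and rose 2.34-fold (log2 fold change 1.23 ± 0.14 SE, adjusted p = 0.00015 from limma). PSMC2 was at 7.93 and 8.74 in the fibroblasts and at 9.02 to 9.34 in the iPSCs (1.74-fold, adjusted p = 0.0093). PSMC6 rose 1.68-fold (adjusted p = 0.00039) and PSMC1 1.65-fold (adjusted p = 0.00076), each without overlap between the cell types. PSMC3 was the exception. It was at 6.38 in the KB10460 fibroblasts and at 7.34 in the KB10973 fibroblasts, while the colonies ranged from 7.04 to 8.18 (median 7.36). The fibroblasts of KB10973 were thus level with the middle of the colonies, and PSMC3 was not called (log2 fold change 0.65 ± 0.32 SE, adjusted p = 0.17). The SD of PSMC3 over the colonies was 0.41 (n = 6), the second highest of all members after PSMD10. Without the KB10973 fibroblasts PSMC3 was called (log2 fold change 1.13, adjusted p = 0.047). The calls of PSMC1 and PSMC2 ended without the KB10460 fibroblasts (log2 fold changes 0.54 and 0.40) and when the colonies of a donor were averaged (adjusted p = 0.058 and 0.17 from limma).

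Of 9 non-ATPase genes of the 19S particle 6 rose. PSMD11, a lid subunit that is known from human embryonic stem cells, where its abundance goes with proteasome activity, had the largest log2 fold change of the members. It was at 7.20 and 7.52 in the KB10460 and KB10973 fibroblasts and at 8.67 to 9.10 (median 8.84) in the iPSCs. All colonies were more than a unit above the fibroblasts, and PSMD11 rose 2.81-fold (log2 fold change 1.49 ± 0.14 SE, adjusted p = 3.8e-05 from limma). PSMD3, another lid subunit, was at 5.12 and 4.62 in the fibroblasts and at 5.77 to 6.48 (median 5.94) in the iPSCs (2.18-fold, adjusted p = 0.0018). PSMD1, the larger scaffold of the base, was at 7.85 and 7.86 and at 8.77 to 9.22 (2.08-fold, adjusted p = 0.00012). The fibroblasts of the donors gave nearly the same PSMD1 value, unlike those of most members. PSMD14, the deubiquitinase that releases the ubiquitin chain, was at 8.57 in each fibroblast culture and at 9.13 to 9.71 (median 9.27) in the iPSCs, and rose 1.68-fold (adjusted p = 0.0035). PSMD4, a ubiquitin receptor, rose 1.66-fold (adjusted p = 0.00042). PSMD6 was at 7.95 and 8.66 in the fibroblasts and at 9.13 to 9.37 in the iPSCs (1.89-fold, adjusted p = 0.0021), a call that ended without the KB10460 fibroblasts (log2 fold change 0.56) and when the colonies of a donor were averaged (adjusted p = 0.10).

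PSMD2, PSMD8 and PSMD12 were not called. PSMD2, the scaffold of the base that docks shuttle proteins, was at 8.23 and 8.51 in the KB10460 and KB10973 fibroblasts and at 8.39 to 8.81 in the iPSCs (log2 fold change 0.27 ± 0.13 SE, adjusted p = 0.16 from limma). PSMD8 was at 7.77 and 7.94 and at 7.88 to 8.28 (log2 fold change 0.26 ± 0.13 SE, adjusted p = 0.18). Each of these overlapped between the cell types. PSMD12 was at 7.68 and 7.88 in the fibroblasts and at 7.97 to 8.73 in the iPSCs without overlap. Its 1.45-fold difference had an adjusted p of 0.040 and missed the fold threshold, and it was called when KB10460 colony 2 was left out (0.60 on the log2 scale). ADRM1, a ubiquitin receptor, and SEM1, a small lid subunit, belong to the 19S particle under other names. ADRM1 was at 6.50 and 6.59 in the fibroblasts and at 7.18 to 7.62 in the iPSCs (1.82-fold, adjusted p = 0.00056). SEM1 was at 6.24 and 6.26 and at 7.14 to 7.57 (2.16-fold, adjusted p = 6.9e-05), so that both rose.

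The 3 assembly chaperones of the 19S base, which leave before the particle is complete, were less uniform. PSMD10, the oncoprotein gankyrin, was at 6.40 and 6.85 in the KB10460 and KB10973 fibroblasts and at 7.45 to 8.56 (median 7.60) in the iPSCs. It rose 2.23-fold (log2 fold change 1.16 ± 0.28 SE, adjusted p = 0.011 from limma), and its SD over the colonies, 0.42 (n = 6), was the highest of the members, with KB10460 colony 1 at 8.56. The PSMD10 call ended without the KB10460 fibroblasts (log2 fold change 0.93, adjusted p = 0.11). PSMD9 was at 7.47 and 7.54 in the fibroblasts and at 7.55 to 8.18 in the iPSCs, just apart, and was not called (log2 fold change 0.27, adjusted p = 0.27). PSMD5 was at 5.21 and 4.76 in the fibroblasts and at 5.03 to 5.63 in the iPSCs, with overlap and no call (log2 fold change 0.34, adjusted p = 0.20).

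None of the 3 activators was called higher at its kept probe set, though a second probe set of PSME3 was (log2 fold change 0.79). PSME1, a subunit of the PA28 ring that is induced by interferon, was at 9.60 in the KB10460 fibroblasts, at 9.83 in the KB10973 fibroblasts and at 8.65 to 9.14 (median 8.83) in the iPSCs. All colonies lay below both cultures, and PSME1 was 1.79-fold higher in the fibroblasts (log2 fold change -0.84 ± 0.14 SE, adjusted p = 0.0013). It was the only member called lower, and the call held in every alternative tried except a fold threshold of 2. PSME3, the nuclear PA28 gamma subunit, was at 5.36 and 6.03 in the fibroblasts and at 5.91 to 6.33 in the iPSCs, with overlap and no call (log2 fold change 0.39, adjusted p = 0.13). Without the KB10973 fibroblasts PSME3 was called (log2 fold change 0.72, adjusted p = 0.0068). PSME4, the large nuclear activator PA200, was at 7.45 and 6.87 in the fibroblasts and at 6.83 to 7.33 (median 7.09) in the iPSCs. It had no call (log2 fold change -0.05 ± 0.17 SE, adjusted p = 0.88), and without the KB10460 fibroblasts its log2 fold change was 0.24. PSMF1, the inhibitor PI31, was under 5 on all arrays, with 4.55 and 4.79 in the fibroblasts and 4.43 to 4.68 in the iPSCs, with overlap and no call (log2 fold change -0.17, adjusted p = 0.25).

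**Figure D3:**
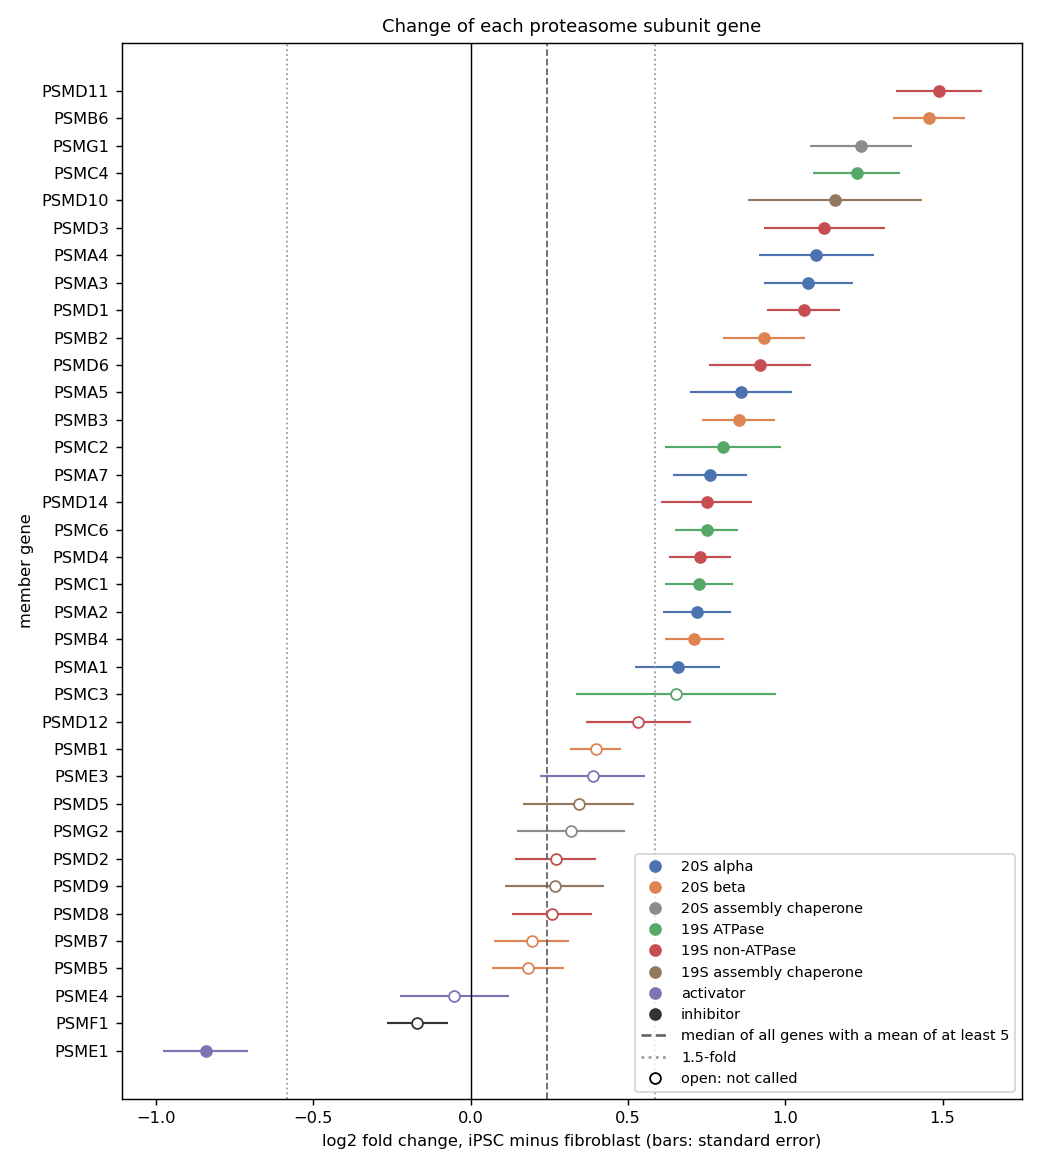
Log2 fold change between 6 iPSC and 2 fibroblast arrays (horizontal axis, bars are limma standard errors) of each member gene (vertical axis, in order of size), coloured by class, with filled points for called genes, a dashed line at the median of all genes with a mean of at least 5 and dotted lines at the fold threshold. The core and 19S subunits spread from 0.18 to 1.49, mixed with each other, and PSME1 is the only called gene on the left.

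Set side by side, core and 19S subunits had like medians. The median of the 3 activators, which is the value of PSME4 itself, was lower. The median log2 fold change was 0.76 over the 13 core genes (10 called higher, none lower) and 0.75 over the 17 genes of the 19S particle and its chaperones (11 called higher, none lower), against -0.05 over the 3 activators (none called higher, 1 lower). Within the core it was 0.81 over the alpha and 0.71 over the beta subunits, and within the 19S particle 0.75 over the ATPase and 0.75 over the non-ATPase subunits. The mean log2 value over the core genes was 8.90 in the KB10460 fibroblasts, 9.22 in the KB10973 fibroblasts and 9.75 to 9.95 in the colonies. The mean over the 17 genes of the 19S group was 7.29 and 7.54 in the fibroblasts and 8.10 to 8.37 in the colonies. In each group every colony was above both cultures. The mean over the activators was 7.47 and 7.58 in the fibroblasts and 7.24 to 7.48 in the colonies, which overlapped. These class values are descriptions without a test, and the 3 activators moved in different directions.

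The fibroblast cultures of the donors differed in their subunit signals. Of the 36 members 32 had a higher signal in the KB10973 than in the KB10460 fibroblasts, with a median difference of 0.26 on the log2 scale. Among genes with a mean of at least 5, 58.9% were higher in the KB10973 fibroblasts, with a median difference of 0.10. With 1 fibroblast culture for each donor this difference has no replicate check, and donor and culture cannot be told apart. The largest differences were those of PSMC3 (0.96), PSMC2 (0.81), PSMA4 (0.79) and PSMD6 (0.71). PSME4 (-0.58), PSMD3 (-0.49), PSMD5 (-0.45) and PSMB3 (-0.15) were the 4 members with a lower value in KB10973. The proliferation markers had the higher mean in the same culture, 4.73 against 4.19, and their part in this was not tested. They were not uniform: the difference was 1.57 in TOP2A, 0.99 in CDC20, 0.60 in BUB1, 0.14 in CCNB1, 0.06 in MCM2 and -0.15 in MKI67.

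Within KB10460, the mean of the 3 colonies minus the fibroblasts had a median of 0.90 over the members, and within KB10973 of 0.48. The change was smaller in KB10973 in 32 of 36 members, against 58.9% of genes with a mean of at least 5. Each change subtracts the lone fibroblast array of its donor. This count is therefore not independent of the difference between the fibroblast cultures given above. In PSMC3 the change was 1.39 in KB10460 and -0.08 in KB10973, in PSMC2 1.26 and 0.35, and in PSMD6 1.27 and 0.57. PSMB6 (1.60 and 1.32), PSMD1 (1.12 and 1.00) and PSMB3 (0.88 and 0.82) changed by similar amounts in the donors. PSME1 was lower in the colonies by nearly the same amount in each (-0.85 and -0.83). In the test of the difference itself, which assumes that the lone fibroblast array of a donor varies like a colony, PSMA4 and PSMA5 were called, and 34 members were not. PSMA4 changed by 1.59 in KB10460 and 0.61 in KB10973 (difference -0.97, standard error 0.17, adjusted p = 0.031 from limma), and PSMA5 by 1.25 and 0.47 (difference -0.78, standard error 0.15, adjusted p = 0.041). Of all genes 2.02% were called in this direction and 1.4% in the other, and of genes with a mean of at least 5, 4.22% and 1.26%. These calls were not stable: no member was called without KB10460 colony 3 or without any 1 of the KB10973 colonies, 1 member other than PSMA4 and PSMA5 was called without KB10460 colony 2, and 4 were called without KB10460 colony 1. A second probe set of PSMA2 was also called for this difference (-1.59, adjusted p = 0.019), while the kept one was not (-0.40, adjusted p = 0.32).

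**Figure D4:**
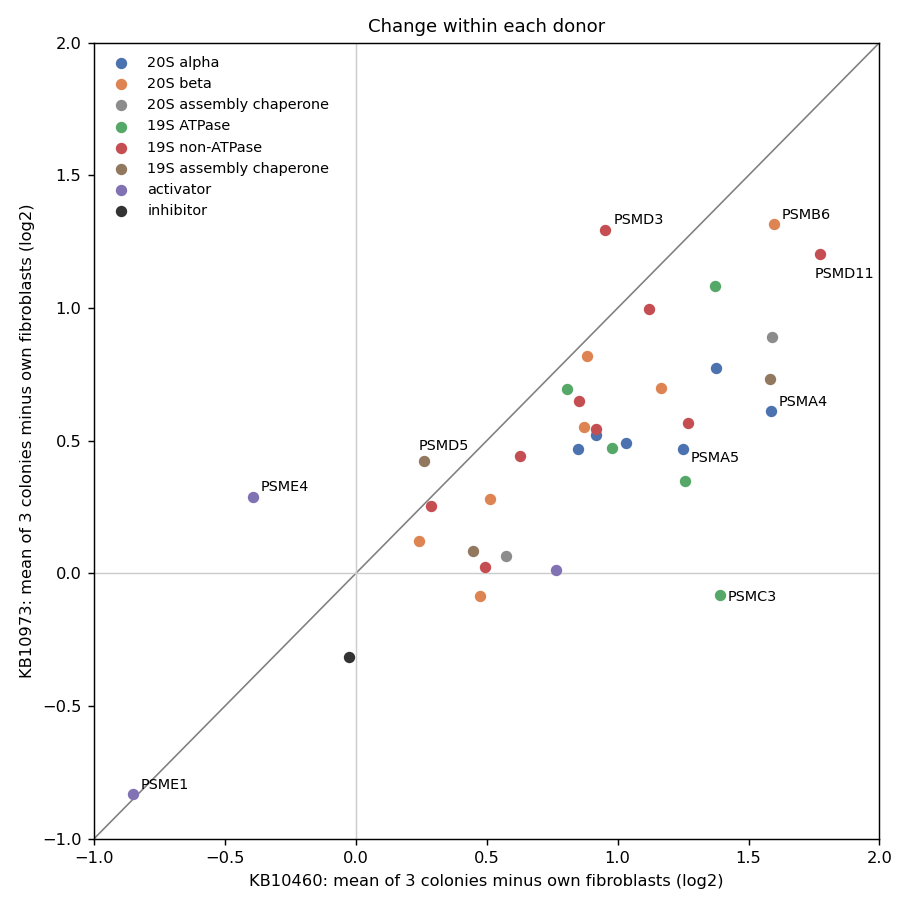
Mean of the 3 iPSC colonies minus the fibroblasts of the same donor, on the log2 scale, in KB10460 (horizontal axis) and KB10973 (vertical axis), with 1 point for each member gene, coloured by class, and the line of equal change. Of the 36 points 32 lie under the line, PSMC3 farthest from it, and PSME1 lies close to it with a negative change in each donor.

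The SD of a member over the 6 iPSC colonies had a median of 0.15 on the log2 scale, from 0.05 in PSMB1 to 0.42 in PSMD10, against a median of 0.19 over genes with a mean of at least 5 and 0.14 over all genes. KB10460 colony 1 had the highest value of the 6 colonies in 20 of 36 members, where it was highest in 27.8% of genes with a mean of at least 5. Its members lay a median of 0.13 above the median of the colonies, and the corresponding medians of the other colonies were between -0.02 and 0.02. The median was 0.17 in the 19S group and 0.12 in the core. PSMD10 at 8.56 against at most 7.93 elsewhere, PSMD3 at 6.48 against 5.97 and PSMD14 at 9.71 against 9.37 are examples. KB10460 colony 1 also had the highest mean of the proliferation markers among the colonies (7.70), whose part in this was not tested.

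**Figure D5:**
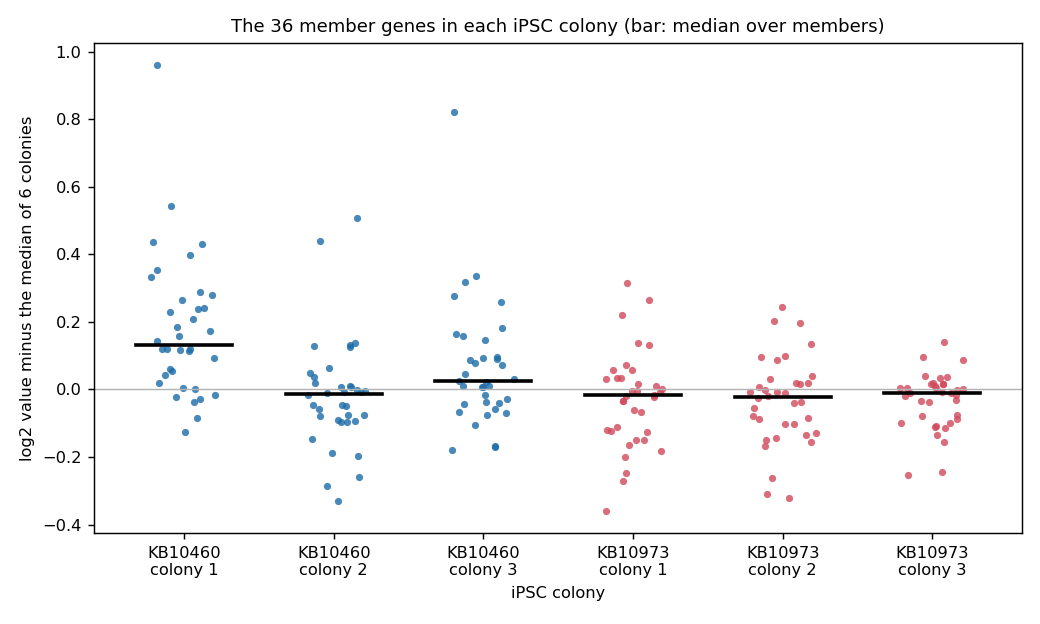
Log2 value of each member gene in each iPSC colony (horizontal axis) minus the median of the 6 colonies for that gene (vertical axis), with 1 point for each of 36 genes, coloured by donor, and a bar at the median over the genes. The bar of KB10460 colony 1 is at 0.13 and those of the other colonies are close to 0.

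Between the donors' colonies no member was called. With 3 arrays against 3, the lowest adjusted p of a member from limma was 0.16, that of PSMA5. Over all genes 0.0585% were called higher and 0.0836% lower in KB10973, and over genes with a mean of at least 5, 0.113% and 0.203%. The differences, KB10973 minus KB10460, ran from -0.52 (PSMC3) to 0.26 (PSME1). PSMA5 was at 8.71, 8.72 and 8.84 in the KB10973 colonies and at 9.12, 9.12 and 9.14 in those of KB10460, without overlap (difference -0.37, standard error 0.08). PSMD8 was at 7.88 and 7.99 in KB10973 colonies 3 and 2, just above that in colony 1, and at 8.25, 8.26 and 8.28 in the KB10460 colonies, without overlap (difference -0.30, standard error 0.07, adjusted p = 0.23). In 9 members all KB10973 colonies lay below those of KB10460, a separation found in 7.16% of all genes and 10.3% of those with a mean of at least 5. In 3 members they lay above, as in 8.14% and 9.56% of these genes. In 26 members the mean was lower in KB10973, against 49.4% of genes with a mean of at least 5.

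PSME4 had its own pattern among the colonies at its 2 stronger probe sets. It is the only member on chromosome 12 of the Sumatran orangutan assembly NHGRI_mPonAbe1-v2.0, matched by symbol. In KB10973 colonies 1 and 2 the 126 chromosome 12 genes with a mean iPSC value over 6 lay a median of 0.34 and 0.40 above the median of the colonies, against -0.15 to -0.01 in the other 4. Over genes with a mean of at least 5 on any chromosome the medians in colonies 1 and 2 were -0.01 and 0.01. No other chromosome was examined by itself. PSME4 was at 7.31 and 7.33 in those 2 colonies and at 6.83 in KB10973 colony 3, with 7.13, 6.99 and 7.04 in the KB10460 colonies. A second probe set of PSME4 separated them more, with 7.39 and 7.53 against 6.84 in KB10973 colony 3 and 6.28 to 6.60 in KB10460. A further probe set of PSME4, under 5 on all arrays, did not separate them. It was at 3.34 and 3.38 in those colonies, at 3.28 in KB10973 colony 3 and at 3.37 to 3.76 in KB10460. None of these probe sets was called between the donors (adjusted p = 0.87, 0.19 and 0.56 from limma). KB10973 colony 1 was among the iPSCs in which the authors detected no large copy number changes on DNA arrays. Whether PSME4 moves with its chromosome was not tested. Without KB10973 colonies 1 and 2 the median of the activators was -0.16 in place of -0.05, and 22 members were still called higher.

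The 23 further probe sets of the members mostly gave the call of the kept one, in 18 cases. Of the 5 others, 3 were under 5 on all arrays, those of PSMB2 (log2 fold change 0.07), PSMC2 (-0.11) and PSMD4 (-0.26), and none of these 3 was called. The second probe set of PSMB4 had a 1.49-fold difference, just under the threshold, with an adjusted p of 0.0014. For PSME3 a second probe set was called higher (0.79, standard error 0.16, adjusted p = 0.0046), at 4.79 in each fibroblast culture and 5.28 to 5.91 in the colonies, while the kept one was not. The rises of PSMA1, PSMA7, PSMD1, PSMD4 and PSMD11 were seen in further probe sets. At the second one of PSMD11 the log2 fold change was 0.96 in place of 1.49.

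Of 32 measured genes that work with the proteasome 9 were called higher (28.1%), 5 lower (15.6%) and 18 not at all, with a median log2 fold change of -0.04. Of all genes 15.2% were called higher and 11.5% lower. Of genes with a mean of at least 5, which not all partner genes reach, 33.6% and 17.6% were. With colonies averaged within donor 10 partner genes were called in place of 14. Of the proteasome-associated proteins, ECPAS, which tethers the core to the 19S particle, rose 2.03-fold (6.66 and 6.42 in the KB10460 and KB10973 fibroblasts, 7.48 to 7.70 in the iPSCs, adjusted p = 3.6e-05 from limma), and the thioredoxin-like TXNL1 rose 1.81-fold (adjusted p = 0.00091). In the group of the VCP segregase, which pulls ubiquitylated proteins out of complexes, the cofactor genes NSFL1C and FAF1 rose 2.35-fold and 2.04-fold, and the call of FAF1 ended when the colonies of a donor were averaged (adjusted p = 0.095 from limma). The shuttle factor RAD23B, which carries ubiquitylated proteins to the 19S particle, rose 1.84-fold (adjusted p = 0.00014), but its probe set outside the _s_at and _x_at classes had a log2 fold change of 0.03. UBA1, the main enzyme of ubiquitin activation, rose 1.91-fold (adjusted p = 0.042), with a colony SD of 0.47 (n = 6). The UBA1 call was lost in 8 alternatives. It ended without the KB10460 fibroblasts (log2 fold change 1.01) and without those of KB10973 (0.85). It also ended without KB10460 colony 3 (adjusted p = 0.073 from limma), without KB10973 colony 2 (0.065) and with colonies averaged within donor (0.062).

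Besides PSMB8, the partner genes that fell were SQSTM1, MAFF, NFE2L2 and MAFG, another small MAF gene, named after its values were seen. The MAFG call (adjusted p = 0.034 from limma) ended without the KB10460 fibroblasts (0.37) and without KB10460 colony 1, KB10973 colony 1 or KB10973 colony 3 (0.054 to 0.064). SQSTM1, a cargo receptor of autophagy that also binds proteasomes, was at 7.32 and 6.76 in the KB10460 and KB10973 fibroblasts and at 4.73 to 5.48 in the iPSCs (log2 fold change -1.94 ± 0.21 SE, adjusted p = 0.00011 from limma). Of 5 measured genes for the transcription of subunit genes 3 fell and none rose. MAFF, a small MAF protein that pairs with NRF factors, was at 9.25 and 8.18 in the fibroblasts and at 4.89 to 5.81 in the iPSCs (log2 fold change -3.52, adjusted p = 2.2e-05). NFE2L2, which encodes the oxidative stress factor NRF2, was at 8.78 and 8.86 and at 6.77 to 7.57 (log2 fold change -1.61, adjusted p = 0.00010). In both genes the cell types lay far apart. NFE2L1, named here after its values were seen, encodes the factor that raises subunit transcription when proteasomes are blocked, and was not called (7.90 and 7.64 against 7.71 to 7.91, log2 fold change 0.07 ± 0.09 SE, adjusted p = 0.63). Its sign turned without the KB10973 fibroblasts (-0.06).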

How the data were processed

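Biotin-labelled cRNA of 8 cultures was hybridized by the authors to Affymetrix human arrays, and the deposited table holds their log2 values, made with RMA in WebArray, of a version not given in the sources used here. The method corrects background, equalizes the arrays and summarizes each probe set, so a change of most transcripts would be removed. Array medians were 3.74 to 3.82. No column lacked a sample (0). The number of arrays limits the precision, and orangutan transcripts can mismatch human probes.

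limma 3.58.1 in R 4.3.3 (lmFit, eBayes) was run on all 22277 probe sets for iPSCs against fibroblasts, for the colonies of the donors, and for the difference of the change over 4 groups. The fold threshold was 1.5. The members, gene lists and alternatives were chosen with earlier results of these data known. Named were all members, PSMB8 to PSMB10, ADRM1, SEM1, POMP and, in each other partner group, the 2 called genes with the largest change. Donor pairs fibroblasts with colonies by animal, and the donor differences of both cell types had a correlation of 0.02 across probe sets. Colony numbers share only a number. The fits of iPSCs against fibroblasts and of the donors' colonies were also run on simulated data with independent arrays. That simulation had no shared donor and left out the difference of the change, so it cannot vouch for either. Sequences of the members were not used here.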

Additional observations from a re-analysis of the deposited data

Results flagged for a closer look

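In 3 of the 36 members 1 colony lay apart from the other 5, each time KB10460 colony 1. PSMA7 was at 9.56 in that colony, PSMD1 at 9.22 and PSMD3 at 6.48, the highest of the 6 colonies in each gene. The next highest colonies were at 9.45, 8.92 and 5.97, so that the gap in PSMA7 was small. The test used marks about 1 in 20 groups by chance. It was run on the 36 members only, so no share over all genes stands beside this count. KB10460 colony 1 was also the highest colony in 27.8% of genes with a mean of at least 5.

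The change between cell types was called different between the donors in PSMA4 (-0.97, KB10973 minus KB10460, on the log2 scale) and in PSMA5 (-0.78), by limma's test of that difference. Among genes with a mean of at least 5, 4.22% were called in this direction and 1.26% in the other. Both calls were lost without KB10460 colony 2, without KB10460 colony 3 and without any 1 of the KB10973 colonies. With 1 fibroblast culture in each donor, donor and culture cannot be told apart.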

How the results depend on the processing

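Values under an alternative were counted over the members and the named partner genes, and for PSMA4 and PSMA5 also for the difference of the change. Of these, 1087 kept their direction and their side of the threshold, 76 kept their direction and lost a call, 8 gained one and 10 changed sign. A call that ended with a change of sign, as in PSMC2 and PSMD4, is counted only as a change of sign. With donor as a replicate block 22 members were called higher, 1 lower and 14 partner genes either way, and this paired analysis changed no call. With colonies averaged within donor, 16 members were called higher and 10 partner genes called, and PSMA4, PSMA5, PSMA7, PSMC1, PSMC2 and PSMD6 lost their calls. Colony number as a block left 0 members called between the donors. A fold threshold of 2 gave 9 members higher, 0 lower, 8 partner genes and 0 members for the difference of the change. Without probe sets whose names end in _s_at or _x_at, 13 of 25 members with a probe set left were called higher and 7 of 17 partner genes called, the activator median was -0.45, and PSMB1 (-0.0073), PSMC2 (-0.11) and PSMD4 (-0.26) turned sign at other probe sets. With the mean of a gene's probe sets 19 members were called higher, PSMB2 (0.50), PSMC2 (0.35) and PSMD4 (0.49) lost their calls, and PSME4 (0.045) and NFE2L1 (-0.16) turned sign.

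Leaving out 1 array at a time gave 16 to 25 members higher, a core median of 0.62 to 0.82, a 19S median of 0.57 to 0.88 and an activator median of -0.34 to 0.055, with the lowest core and 19S values without the KB10460 fibroblasts and the highest without those of KB10973. Of the 22 higher calls 16 remained in each of these 8 fits, and PSMA1, PSMA7, PSMC1, PSMC2, PSMD6 and PSMD10 were lost without the KB10460 fibroblasts. In each of the 9 other fits of the kept probe sets 15 remained, and PSMA1, PSMA4, PSMA5, PSMA7, PSMC1, PSMC2 and PSMD6 were lost in at least 1. The ranges were -0.018 to 0.41 for PSMB7, -0.34 to 0.24 for PSME4 (0.0030 without KB10973 colony 3), -0.92 to 0.11 for PSMB9 and -0.059 to 0.21 for NFE2L1. Members called for the difference of the change numbered 0 to 4 without 1 colony, 1 with KB10973 colonies 1 and 2 averaged, 1 with a trended robust fit, 1 with probe sets of a mean of at least 5 only, 1 after a further quantile normalization and 0 at an adjusted p under 0.01. This difference could not be fitted without a fibroblast array. Leaving out KB10973 colonies 1 and 2 together, chosen after seeing the data, gave an activator median of -0.16 and 0 members for the difference. The cause of these changes was not tested.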
